A study of Mus musculus with 20 samples.

Results

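F4/80+ and CD11b+ cells were compared in 6 of the 20 libraries of the series, 3 of each population. The cells were drawn with magnetic microbeads from Mt2, a medium-content liver metastasis taken at day 11 after wild-type mice on the C57BL/6 background had received 1000000 MC38 cells, which derive from a mouse colon carcinoma. No treatment or genotype set the populations apart, and the bead antigen was the difference between them. The members were all libraries whose labels name F4/80+ or CD11b+ cells, a rule that reads the labels alone. Whether a library stands for a mouse, a pool of mice or a part of the same cell suspension is not given, so each p-value below measures the spread between libraries, which may be technical. A microbead column enriches cells that carry an antigen, and cells that carry both antigens can be held in either fraction.

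F4/80, the product of Adgre1, is a surface receptor of mature macrophages, and it is dense on Kupffer cells, the resident macrophages of the liver sinusoids. CD11b, the product of Itgam, pairs with CD18 to form complement receptor 3 on monocytes, neutrophils, many macrophages and the cDC2 class of dendritic cells. In liver metastases macrophages come from Kupffer cells and from blood monocytes, and the study asked how F4/80+ macrophages relate to tumor vessels.

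The libraries held 17785496 to 20548370 counts. Values below are CPM, the share of a library's counts taken by a gene scaled to 1000000, after TMM scaling, which sets libraries on a common scale, and 3 values in a row are replicates 1, 2 and 3. A call required a log2 fold change (F4/80+ minus CD11b+) of at least 1 in size beside an adjusted p not above 0.05, and was made by edgeR on the 6 libraries where no other tool or set of libraries is named. Of 54532 genes listed 14263 had enough counts to be tested, and 1503 of them had an unadjusted p under 0.05. CD11b+ replicate 3 stood apart from the other 5 libraries. Ribosomal protein genes took 7.76% of its counts and 3.55% to 4.08% of the counts of the others, and genes longer than 4000 bases took 34.4% against 47.8% to 49.1%. Relative to the mean of the 6 libraries, the median level of genes of 56 to 1968 bases was 0.525 higher on the log2 scale in CD11b+ replicate 3 and that of genes of 7041 to 123179 bases 0.454 lower, whereas the other libraries stayed between -0.142 and 0.144 over 5 length classes of about equal size. The leading results are therefore given with and without this library.

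**Figure D1:**
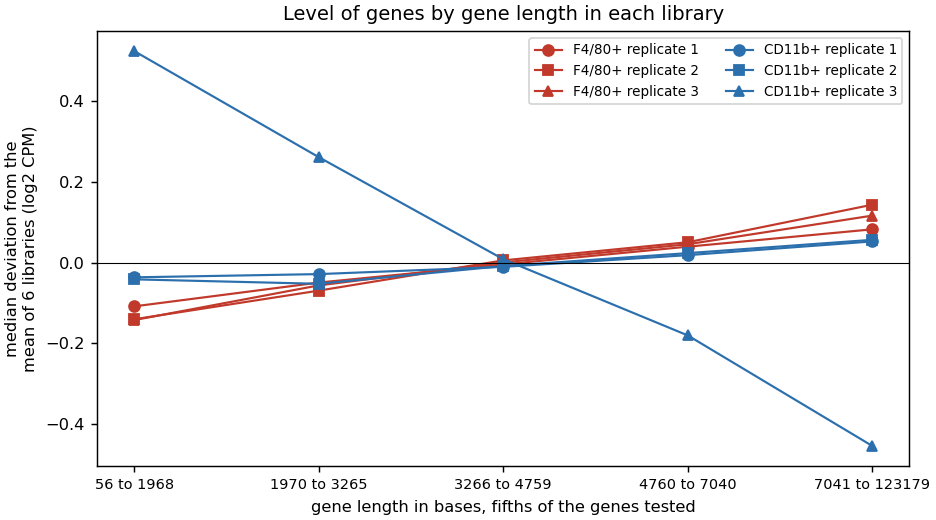
Median deviation of each library from the mean of the 6 libraries (log2 CPM, vertical axis) in 5 about equal classes of the genes tested, ordered by gene length (horizontal axis). CD11b+ replicate 3 runs from 0.525 in the shortest class to -0.454 in the longest, and the other 5 libraries stay between -0.142 and 0.144.

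The bead antigens differed in the direction of the labels, by less than the thresholds. Adgre1 stood at 854, 782 and 750 CPM in F4/80+ cells and at 567, 597 and 621 CPM in CD11b+ cells. Itgam stood at 266, 274 and 320.2 CPM in F4/80+ cells and at 391, 409.5 and 498 CPM in CD11b+ cells. The libraries of the 2 populations did not overlap for either gene, but neither was called, with log2 fold changes of 0.42 ± 0.15 (SE, edgeR adjusted p = 0.427) for Adgre1 and -0.59 ± 0.17 (edgeR adjusted p = 0.3) for Itgam. Itgb2, which encodes CD18, ranged from 566 to 637 CPM in F4/80+ cells and from 536 to 714 CPM in CD11b+ cells, so that its libraries overlapped.

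Macrophage genes were abundant in both populations. The summed CPM of 18 pan-macrophage genes was 40210, 37760 and 36790 in F4/80+ cells and 34230, 32260 and 50990 in CD11b+ cells. In the 2 libraries of whole Mt2 tissue, on total-count CPM, it was 16090 and 10850. Apoe, the carrier of cholesterol that macrophages secrete, reached 15950, 16080 and 15200 CPM against 13040, 11980 and 21580 CPM. Csf1r, the receptor through which macrophages survive, reached 2909, 3026 and 2624 CPM against 2249, 2408 and 1921 CPM. The pan-macrophage genes had a median log2 fold change of 0.02, beside -0.004 over all genes tested, none of the 18 was called by edgeR or DESeq2, and 4 were higher in F4/80+ cells without overlap, among them Csf1r and Adgre1. A list of 16 genes of lipid-associated macrophages, led by Trem2 and Gpnmb, had a median of -0.17, with 0 called by edgeR or DESeq2. The summed CPM of 16 T cell genes lay between 35.8 and 62.3 and that of the B cell list between 248 and 446. In bulk libraries, fewer cells of a type and less RNA per cell cannot be told apart, here and in every list below. The albumin-led hepatocyte list, at 124800 and 50550 in the Mt2 tissue, lay between 161 and 526 in the sorted cells.

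**Figure D2:**
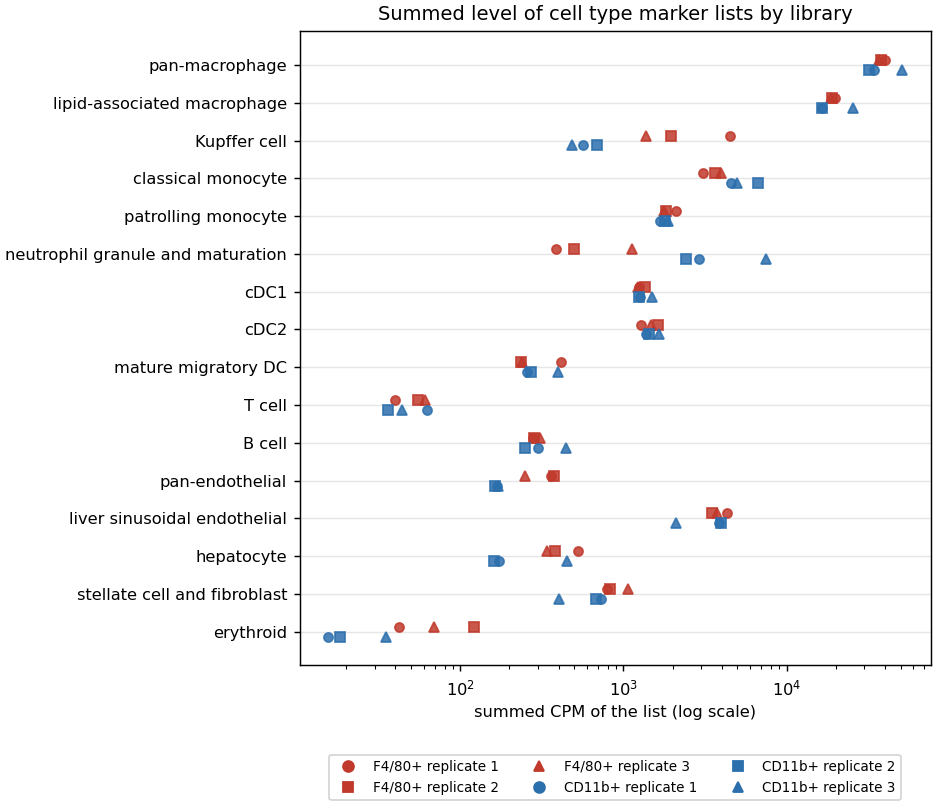
Summed CPM (log scale, horizontal axis) of the genes of 16 marker lists (vertical axis) in the 3 F4/80+ and 3 CD11b+ libraries. Pan-macrophage genes lie highest in every library, Kupffer cell genes are higher in all F4/80+ libraries (1380 to 4528) than in the CD11b+ libraries (484 to 689), and neutrophil genes are higher in all CD11b+ libraries (2411 to 7437) than in the F4/80+ libraries (384 to 1126).

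Between these populations 11 genes were called by edgeR's quasi-likelihood test, 1 higher in F4/80+ cells (0.00701% of the genes tested) and 10 lower (0.0701%). Without CD11b+ replicate 3 the same test called 136 genes, 40 higher (0.273% of 14670) and 96 lower (0.654%), and all 11 were among them. DESeq2 on the 6 libraries called 127 genes higher (0.735% of 17274) and 172 lower (0.996%). No gene was called without F4/80+ replicate 1, without F4/80+ replicate 2 or without CD11b+ replicate 2, with 1008, 844 and 1914 genes at an unadjusted p under 0.05. Where lists are described below, a gene is also counted when its 3 libraries of 1 population all lay above the 3 of the other. This held for 1647 genes in favor of F4/80+ cells (11.5% of the genes tested) and for 1676 in favor of CD11b+ cells (11.8%), and counts of members are to be read against these shares.

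Kcna2, which encodes a voltage-gated potassium channel and lies at chr3:107101146-107115005 (GRCm38), was the gene called higher in F4/80+ cells. It stood at 33.5, 15.9 and 11.4 CPM in F4/80+ cells and at 0.901, 0.852 and 0.527 CPM in CD11b+ cells. Every F4/80+ library was over 10 CPM and every CD11b+ library under 1 CPM, with a log2 fold change of 4.71 ± 0.49 (SE, edgeR adjusted p = 0.0284). Kcnj16, an inwardly rectifying potassium channel, showed the same order of libraries, at 24.7, 8.48 and 4.92 CPM against 0.530, 0.426 and 0.0659 CPM, and was called without CD11b+ replicate 3 (adjusted p = 0.0488), not with it (0.0624).

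The 10 genes called lower in F4/80+ cells included G0s2, Hdc and Il1r2, which are members of the neutrophil list described next. Lrg1, a secreted glycoprotein stored in neutrophil granules, stood at 8.03, 7.79 and 12.8 CPM in F4/80+ cells and at 44.6, 57.8 and 71.5 CPM in CD11b+ cells, and it fell by 2.60 ± 0.27 on the log2 scale (adjusted p = 0.0284). Ccr7, the receptor with which mature dendritic cells follow chemokines to lymph nodes, stood at 4.40, 4.40 and 5.45 CPM against 18.4, 20.02 and 22.1 CPM. Its libraries lay close together within each population, and its log2 fold change was -2.08 ± 0.18 (adjusted p = 0.0284). Slc2a3, the glucose transporter GLUT3, stood at 17.5, 14.6 and 18.9 CPM against 46.3, 47.9 and 40.0 CPM (log2 fold change -1.40 ± 0.16, adjusted p = 0.0400). Pi16, a peptidase inhibitor, stood at 2.31, 4.24 and 3.90 CPM against 18.9, 30.05 and 30.6 CPM. The ubiquitin ligase gene Rnf144a and the long noncoding RNA 4833407H14Rik were called at lower levels, with log2 fold changes of -2.11 ± 0.23 and -3.22 ± 0.34. Rufy4 had 1 count over the 3 F4/80+ libraries and 133 over the CD11b+ libraries, a ratio of 134 with an exact 95% counting interval of 23.7 to 5350.

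**Figure D3:**
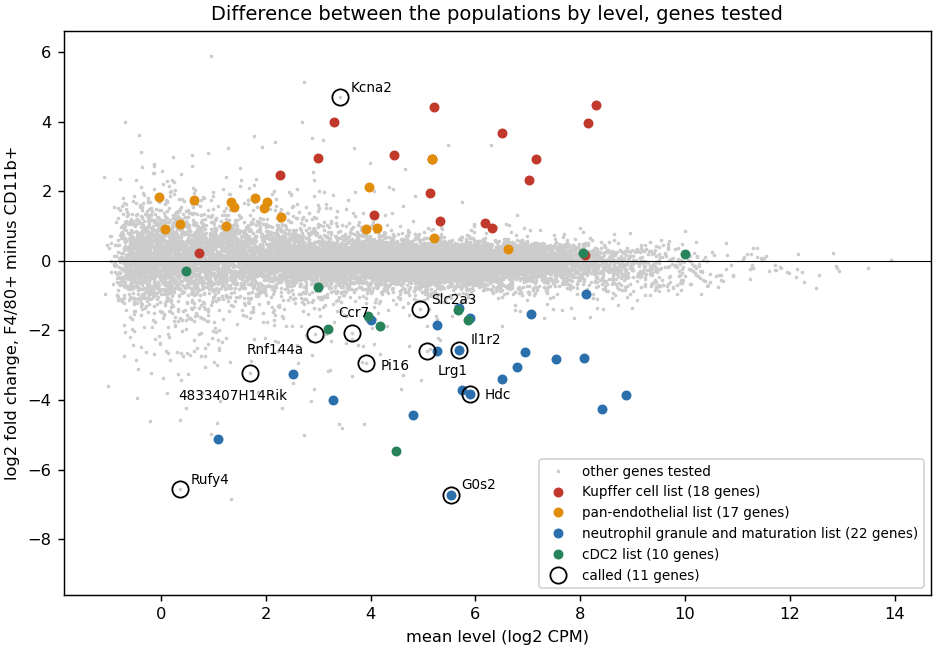
Log2 fold change, F4/80+ minus CD11b+ (vertical axis), against mean level (log2 CPM, horizontal axis) for the 14263 genes tested. Circles mark the 11 genes called, and colors mark the tested members of 4 marker lists (Cdh5 is in the Kupffer cell and the pan-endothelial list and is drawn in the color of the latter). Kupffer cell and pan-endothelial genes lie above 0 and neutrophil genes below 0.

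With all 6 libraries neutrophil genes had the largest median difference of the 57 lists, though with each library's length trend removed the median was -2.76 beside 2.77 for Kupffer cell genes. Neutrophils carry CD11b and, when mature, hold gelatinase and specific granules that are filled during their growth in bone marrow. All 22 genes of the list were lower in F4/80+ cells, with a median log2 fold change of -2.94 (-2.46 without CD11b+ replicate 3 and -4.93 without F4/80+ replicate 3), and 17 did so without overlap. edgeR called 3 of them, or 8 without CD11b+ replicate 3, and DESeq2 called 10. The summed CPM was 384, 495 and 1126 in F4/80+ cells and 2904, 2411 and 7437 in CD11b+ cells, against 500 and 592 in the whole Mt2 tissue on total-count CPM. The sum also differed within the populations, and F4/80+ replicate 3 and CD11b+ replicate 3 held the highest levels of their groups.

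G0s2 encodes an inhibitor of triglyceride lipase that is abundant in neutrophils. It stood at 0.385, 1.22 and 0.962 CPM in F4/80+ cells and at 41.0, 76.6 and 157 CPM in CD11b+ cells, a log2 fold change of -6.72 ± 0.64 (adjusted p = 0.0284). Hdc, which makes histamine and is also a mast cell and basophil gene, stood at 5.12, 6.68 and 11.7 CPM against 90.7, 152 and 90.3 CPM (log2 fold change -3.83 ± 0.37). In the mast cell and basophil list Hdc, Kit and Gata2 were tested, with a median of -1.75, which is the value of Kit. Gata2 was higher on average but overlapped, at 2.915, 3.39 and 4.76 CPM against 3.66, 2.08 and 0.856 CPM. Kit, the stem cell factor receptor, was lower without overlap at 3.41, 6.52 and 3.42 CPM against 15.5, 12.0 and 17.5 CPM (adjusted p = 0.0784) and was called by DESeq2. The genes Mcpt8, Mcpt4, Cpa3, Tpsb2, Cma1, Ms4a2, Fcer1a and Prss34 had too few counts to be tested. Il1r2, the decoy receptor for interleukin 1, stood at 15.8, 16.4 and 12.7 CPM against 77.05, 118 and 70.0 CPM (log2 fold change -2.56 ± 0.24).

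The granule genes varied more among libraries. S100a8, a subunit of calprotectin, stood at 2.64, 12.99 and 86.3 CPM in F4/80+ cells and at 276, 177 and 1486 CPM in CD11b+ cells, and its log2 fold change of -4.25 ± 1.34 did not pass the test (adjusted p = 0.359). The specific granule genes Ltf and Ngp overlapped between the populations, since Ltf reached 116 CPM in F4/80+ replicate 3 and 36.8 CPM in CD11b+ replicate 2. Cxcr2, the chemokine receptor of circulating neutrophils, stood at 0.275, 1.22 and 5.93 CPM against 41.0, 63.0 and 57.3 CPM. Its adjusted p was 0.0864, and 0.0380 without CD11b+ replicate 3. Mmp9, the gelatinase, stood at 18.5, 29.9 and 56.2 CPM against 183, 287 and 167 CPM, with adjusted p values of 0.0666 and 0.0332. Csf3r, the receptor for the growth factor G-CSF, differed less, at 158, 211 and 195 CPM against 321, 456 and 312 CPM (log2 fold change -0.95 ± 0.21, adjusted p = 0.146), and it was called without CD11b+ replicate 3 (-1.04 ± 0.17, adjusted p = 0.0388). Ly6g and Stfa2l1 had no count in F4/80+ replicate 1, which allows up to 0.168 CPM. Of 6 tested granule genes of neutrophil precursors 4 were lower in F4/80+ cells, 2 without overlap, with a median of -1.23, 0 called by edgeR and 2 called lower and 1 higher by DESeq2. Prtn3, a serine protease of azurophil granules, stood at 1.81, 5.51 and 3.42 CPM against 6.62, 9.51 and 6.65 CPM. Mpo, the peroxidase of these granules, was the gene higher without overlap, at 1.93, 4.61 and 4.86 CPM against 0.901, 0.284 and 0.988 CPM, and Elane was under 3 CPM in every library.

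Promoters of neutrophil genes were read for 2 short motifs, since C/EBP factors and PU.1 direct granule genes in myeloid cells. The windows, from RefSeq on GRCm38.p6, span 250 bases before to 50 after each start. TTGCNNAA, the C/EBP type, was found on either strand in 7 of 20 genes of the list that have a window (35%), beside 12.2% of all 27025 genes. AGGAAGT, the PU.1 and ETS type, was found in 5 of 20 (25%), beside 10.7% of all genes. Among 10 pan-endothelial genes with a window the shares were 10% and 30%. Of the 11 genes called, 9 had a window, none held TTGCNNAA, and Lrg1 and 4833407H14Rik held AGGAAGT. The 250 bases before the start are shown for Lrg1 (chr17:56121947-56122196, minus strand), the called granule gene with a match, for Mmp8 (chr9:7558179-7558428, plus strand), which held both motifs, for S100a9 (chr3:90695722-90695971, minus strand), among the most abundant neutrophil genes, and for G0s2 (chr1:193273189-193273438, minus strand), which held neither. Capitals mark the matches, which describe letters and not binding.
Lrg1: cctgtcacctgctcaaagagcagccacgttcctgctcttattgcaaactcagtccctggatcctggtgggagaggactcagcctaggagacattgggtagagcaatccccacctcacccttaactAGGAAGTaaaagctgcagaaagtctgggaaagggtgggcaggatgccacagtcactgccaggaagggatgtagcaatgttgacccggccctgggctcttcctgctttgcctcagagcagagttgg
Mmp8: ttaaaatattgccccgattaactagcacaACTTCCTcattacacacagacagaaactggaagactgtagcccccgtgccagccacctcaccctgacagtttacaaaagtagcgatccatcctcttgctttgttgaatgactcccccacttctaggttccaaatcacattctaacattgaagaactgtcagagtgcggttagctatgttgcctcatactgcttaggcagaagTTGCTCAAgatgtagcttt
S100a9: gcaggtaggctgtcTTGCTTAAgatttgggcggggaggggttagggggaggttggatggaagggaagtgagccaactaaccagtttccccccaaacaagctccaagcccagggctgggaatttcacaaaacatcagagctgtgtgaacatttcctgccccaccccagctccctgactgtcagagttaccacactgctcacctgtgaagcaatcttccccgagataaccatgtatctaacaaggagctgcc
G0s2: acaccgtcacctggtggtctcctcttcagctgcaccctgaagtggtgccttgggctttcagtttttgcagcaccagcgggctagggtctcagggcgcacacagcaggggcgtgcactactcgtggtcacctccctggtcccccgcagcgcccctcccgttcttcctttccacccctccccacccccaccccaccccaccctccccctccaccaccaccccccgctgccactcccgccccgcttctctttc
In Mmp8 the C/EBP type match began 19 bases before the start and the PU.1 type match, on the minus strand, 221 bases before it. In S100a9 the C/EBP type match began 236 bases before the start.

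Kupffer cell genes stood on the other side. All 18 genes of the list were higher in F4/80+ cells, 14 without overlap, with a median log2 fold change of 2.70 (2.33 without CD11b+ replicate 3). None was called by edgeR on the 6 libraries, 7 were called without CD11b+ replicate 3, and DESeq2 called 11. The summed CPM was 4528, 1948 and 1380 in F4/80+ cells and 566, 689 and 484 in CD11b+ cells. Among F4/80+ cells replicate 1 held the highest and replicate 3 the lowest level, the reverse of the order of these libraries in neutrophil genes.

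Clec4f, a glycan-binding lectin that marks Kupffer cells, stood at 1137, 415 and 256 CPM in F4/80+ cells and at 29.7, 40.4 and 10.6 CPM in CD11b+ cells. Its log2 fold change was 4.48 ± 0.71 (edgeR adjusted p = 0.0652, 0.0371 without CD11b+ replicate 3). Cd5l, a secreted scavenger protein of tissue macrophages, stood at 968, 397 and 244 CPM against 36.5, 46.6 and 19.4 CPM (adjusted p = 0.0581, 0.0366 without CD11b+ replicate 3). Vsig4, the complement receptor that clears opsonized particles from blood, stood at 296, 129 and 80.5 CPM against 12.4, 19.4 and 7.31 CPM, and Timd4, a receptor for dying cells that embryo-derived Kupffer cells carry, at 68.0, 27.2 and 20.8 CPM against 4.77, 5.49 and 3.89 CPM. In each of these genes the lowest F4/80+ library lay well above the highest CD11b+ library.

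C6, a terminal complement component, stood at 131, 50.8 and 29.99 CPM against 4.19, 4.21 and 1.25 CPM (adjusted p = 0.0598, 0.0388 without CD11b+ replicate 3). Paqr9 and Cd207 were likewise called without CD11b+ replicate 3, each at an adjusted p of 0.0332. Nr1h3, the sterol-sensing receptor LXR alpha that maintains Kupffer cells, stood at 129.7, 93.0 and 74.8 CPM against 36.4, 33.7 and 69.9 CPM, and it was called without CD11b+ replicate 3 (log2 fold change 1.503 ± 0.22, adjusted p = 0.0332), not with it (1.09 ± 0.32, 0.326). Slc40a1, the iron exporter ferroportin, stood at 360.0, 171 and 115 CPM against 36.1, 56.3 and 36.5 CPM. The haemoglobin scavenger Cd163 stood at 472, 168 and 115 CPM against 37.6, 55.1 and 6.19 CPM. Neither Slc40a1 nor Cd163 was called by edgeR with or without CD11b+ replicate 3. Hmox1, Folr2, Id3 and Xlr4a overlapped between the populations. Clec1b, a platelet receptor gene that is a member of the platelet list here, stood at 46.8, 21.6 and 14.4 CPM against 3.66, 3.79 and 4.28 CPM and was called without CD11b+ replicate 3 (adjusted p = 0.0462). The platelet chemokine Pf4, of the same list, stood in the other order, at 138, 91.9 and 113 CPM against 148, 175 and 188 CPM.

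**Figure D4:**
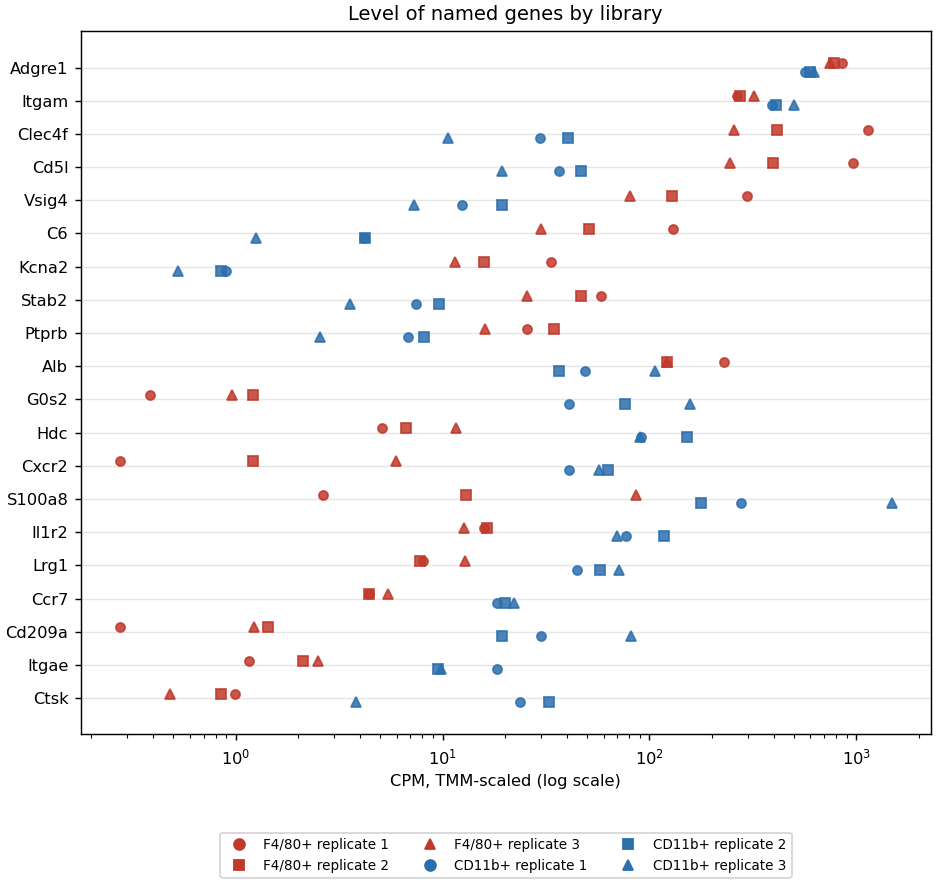
Level of 20 named genes (CPM, log scale, horizontal axis) in the 3 F4/80+ and the 3 CD11b+ libraries. Kcna2 lies at 11.4 to 33.5 CPM in F4/80+ and under 1 CPM in CD11b+ libraries, G0s2 at 0.385 to 1.22 CPM in F4/80+ and at 41.0 to 157 CPM in CD11b+ libraries, and the bead antigens Adgre1 and Itgam differ least.

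Endothelial genes were low in both populations and higher in F4/80+ cells. Of 18 pan-endothelial genes 17 were tested, all 17 were higher in F4/80+ cells, 15 without overlap, and the median log2 fold change was 1.53 (1.62 without CD11b+ replicate 3). The summed CPM was 359, 375 and 248 in F4/80+ cells and 167, 163 and 169 in CD11b+ cells, beside 574 and 555 in the Mt2 tissue on total-count CPM. edgeR called none on the 6 libraries and Ptprb, a phosphatase of endothelial junctions, without CD11b+ replicate 3, and DESeq2 called 6. Ptprb stood at 25.5, 34.8 and 15.98 CPM against 6.78, 8.14 and 2.57 CPM (adjusted p = 0.127, 0.0471 without CD11b+ replicate 3). Kdr, the main VEGF receptor of vessels, stood at 17.7, 25.5 and 15.8 CPM against 9.38, 11.0 and 10.7 CPM (log2 fold change 0.92 ± 0.22, adjusted p = 0.184). Cdh5, the cadherin of endothelial junctions, is also in the Kupffer cell list and stood at 107, 51.6 and 33.4 CPM against 7.84, 13.2 and 3.95 CPM, in the same order of libraries as Clec4f. For Kdr, Flt1, Tie1 and Ptprb the highest library was F4/80+ replicate 2.

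Genes of liver sinusoidal endothelium had a median of 1.09 over 17 tested, with 8 higher without overlap, 0 called by edgeR, 3 called without CD11b+ replicate 3 and 7 called by DESeq2. Stab2, the hyaluronan scavenger receptor of sinusoids, stood at 58.4, 46.9 and 25.5 CPM against 7.47, 9.66 and 3.56 CPM (adjusted p = 0.0652, 0.0332 without CD11b+ replicate 3). Flt4, the receptor for VEGF-C, stood at 16.2, 19.1 and 10.1 CPM against 4.35, 4.92 and 2.96 CPM (adjusted p = 0.0666, 0.0413 without CD11b+ replicate 3). Stab1, a scavenger receptor that macrophages express as well, made up most of the sum of this list in 5 libraries and overlapped, at 2901, 2001 and 2527 CPM against 2709, 2853 and 976 CPM. The 13 tested genes of capillary and tip endothelium had a median of 0.38 (0.23 without CD11b+ replicate 3), with 3 higher and 1 lower without overlap, 0 called by edgeR and 1 called lower by DESeq2.

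Genes of vessel growth were measured as ligands and receptors. Of 9 tested genes of the VEGF list 8 were higher in F4/80+ cells and 5 without overlap, with a median of 0.76. edgeR called 0, and Flt4 was called by DESeq2 and by edgeR without CD11b+ replicate 3. The 5 genes without overlap were the receptor genes Flt1, Kdr, Flt4 and Nrp1 and the ligand Vegfc, which stayed under 3 CPM. Flt1 and Kdr are also in the pan-endothelial list and Flt4 in the sinusoidal list. Vegfa, the main ligand, stood at 114, 75.2 and 51.1 CPM against 57.9, 70.9 and 49.9 CPM and Vegfb at 30.5, 22.2 and 22.5 CPM against 29.99, 25.7 and 25.4 CPM, and both overlapped. Among 21 tested secreted angiogenic factors 15 were higher, 6 without overlap, with a median of 0.53, and edgeR called 0 and DESeq2 1 lower. Pdgfc, a platelet-derived growth factor, stood at 21.6, 9.595 and 11.1 CPM against 6.78, 7.86 and 2.96 CPM. Of 10 tested Notch genes 2 were higher without overlap, with a median of 0.22 (0.03 without CD11b+ replicate 3), and edgeR called 0 and DESeq2 1 higher.

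Dendritic cell genes were lower in F4/80+ cells in part. The 10 tested cDC2 genes had a median of -1.499 (-1.06 without CD11b+ replicate 3), and 7 were lower and 1 higher without overlap. None was called on the 6 libraries, 5 were called lower without CD11b+ replicate 3, and DESeq2 called 6. Cd209a, a lectin of CD11b+ dendritic cells, stood at 0.275, 1.43 and 1.23 CPM against 29.9, 19.3 and 81.3 CPM (log2 fold change -5.45 ± 0.72, adjusted p = 0.0529, 0.00713 without CD11b+ replicate 3). Zbtb46, a transcription factor of classical dendritic cells, stood at 3.03, 4.24 and 3.74 CPM against 16.9, 9.32 and 17 CPM, and Flt3, their growth factor receptor, at 5.50, 10.5 and 6.95 CPM against 26.6, 18.4 and 24.5 CPM. Both were called without CD11b+ replicate 3 (adjusted p = 0.0362 and 0.0462). Sirpa, which macrophages share, was the gene higher without overlap and carried most of the sum of the list, which was 1274, 1621 and 1468 against 1367, 1431 and 1651.

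Among 9 tested genes of mature migratory dendritic cells 7 were lower, 4 without overlap, and Ccr7 was called. Ccl22, a chemokine that draws T cells, stood at 2.75, 6.31 and 4.17 CPM against 13.5, 17.9 and 41.6 CPM (adjusted p = 0.103, 0.0430 without CD11b+ replicate 3), and its neighbor in function Ccl17 at 1.16, 1.33 and 0.267 CPM against 6.25, 3.64 and 21.7 CPM. The genes Xcr1 and Clec9a overlapped, and the median of the cDC1 list was -0.29 (0.22 without CD11b+ replicate 3). One gene of that list, Tlr3, was higher without overlap, and Itgae, the integrin chain CD103, lower, at 1.16, 2.12 and 2.51 CPM against 18.4, 9.51 and 9.88 CPM (adjusted p = 0.0581, 0.0241 without CD11b+ replicate 3). Itgb7, the partner chain of Itgae, stood at 46.4, 80.4 and 59.4 CPM against 142, 152 and 209 CPM (adjusted p = 0.0727, 0.0369 without CD11b+ replicate 3), and Cdh1, the cadherin that CD103 binds, at 1.87, 2.81 and 2.73 CPM against 10.7, 13.7 and 8.23 CPM (adjusted p = 0.0529, 0.0137 without CD11b+ replicate 3).

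Monocyte genes were split. Of 13 classical monocyte genes 12 were lower in F4/80+ cells, 5 without overlap, with a median of -0.94 (-0.49 without CD11b+ replicate 3). edgeR called 0 on the 6 libraries and 2 lower without CD11b+ replicate 3, and DESeq2 called 3 lower. Hp, the haptoglobin of monocytes and neutrophils, stood at 79.2, 84.6 and 67.0 CPM against 186, 196 and 334 CPM (adjusted p = 0.0624, 0.00509 without CD11b+ replicate 3). Ly6c2 and Ccr2, which define the class, overlapped, Ccr2 at 513, 912 and 698 CPM against 535, 551 and 753 CPM. Of 12 patrolling monocyte genes 2 were higher and 2 lower without overlap, Cx3cr1 among the former at 716, 893 and 853 CPM against 641, 585 and 639.7 CPM.

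Most hepatocyte, erythroid and stromal genes tested were higher in F4/80+ cells. Of 19 tested hepatocyte genes 17 were higher, 6 without overlap, with a median of 0.96 (1.65 without CD11b+ replicate 3), 0 called by edgeR, 4 without CD11b+ replicate 3 and 1 by DESeq2, and sums of 526, 383 and 341 against 173, 161 and 450. The sum of CD11b+ replicate 3 thus lay within the range of the F4/80+ libraries. Alb, the serum albumin gene, stood at 229, 122 and 122 CPM against 48.8, 36.5 and 106 CPM (adjusted p = 0.379, 0.0383 without CD11b+ replicate 3). All 7 erythroid genes tested were higher, 5 of them without overlap, with sums of 42.3, 121 and 68.5 against 15.5, 18.2 and 35.1, and edgeR called 0 and DESeq2 3. The haemoglobin chain Hbb-bs stood at 15.95, 54.9 and 27.5 CPM against 4.29, 5.16 and 13.4 CPM. In the stellate cell and fibroblast list 11 of 13 tested genes were higher, 6 without overlap, and 1 was lower without overlap. Its sums were 791, 832 and 1072 against 731, 675 and 403, and neither edgeR nor DESeq2 called any member.

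Among chemokines 19 of 25 tested genes were lower in F4/80+ cells, 4 without overlap, with a median of -0.42 (-0.25 without CD11b+ replicate 3). edgeR called 0 on the 6 libraries and 2 lower without CD11b+ replicate 3, and DESeq2 called 1 higher and 3 lower. Cxcl3, a ligand of Cxcr2, stood at 1.43, 0.424 and 0.588 CPM against 9.70, 24.99 and 5.60 CPM (log2 fold change -4.04 ± 0.69, adjusted p = 0.0714, 0.0220 without CD11b+ replicate 3). Cxcl13, which attracts B cells, was the chemokine higher without overlap, at 23.9, 5.99 and 8.02 CPM against 3.29, 0.899 and 2.31 CPM. In the inflammatory cytokine list 16 of 20 tested genes were lower, 2 without overlap, and 1, the receptor gene Tnfrsf1b, was higher without overlap. The genes lower were Il1r2, called, and Csf1, the macrophage growth factor, at 22.1, 23.7 and 26.7 CPM against 42.0, 61.1 and 42.6 CPM (adjusted p = 0.0922, 0.0332 without CD11b+ replicate 3). Il1b overlapped at 454, 194 and 208 CPM against 427, 785 and 982 CPM. The 19 chemokine receptors tested had a median of -0.06, with 2 higher without overlap, Cx3cr1 among them, and with Ccr7, Cxcr2 and the leukotriene receptor Ltb4r1 lower.

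Most scavenger receptor genes were higher in F4/80+ cells, and complement genes were mixed. These lists share members with lists above. Timd4, Marco, Cd163, Cd5l, C6 and Vsig4 are also Kupffer cell list genes, and Stab1 and Stab2 sinusoidal list genes. Of 19 tested scavenger and efferocytosis receptors 17 were higher, 10 without overlap, with a median of 0.52, 0 called by edgeR, 5 by DESeq2 and 2 by edgeR without CD11b+ replicate 3, which were Cd5l and Stab2. Axl, a receptor for dying cells, stood at 1050, 1262 and 1113 CPM against 843, 824 and 798 CPM (log2 fold change 0.47 ± 0.16, adjusted p = 0.394), and Marco, a receptor for bacteria, at 87.8, 44.0 and 35.9 CPM against 14.6, 11.5 and 17.5 CPM. Of 19 tested complement genes 13 were higher and 6 lower, 8 and 1 of them without overlap, with a median of 0.37. edgeR called 0 on the 6 libraries and 3 higher without CD11b+ replicate 3, and DESeq2 called 4 higher. The gene lower without overlap was Itgam. C1qa, a chain of the C1q complex that starts the cascade, overlapped at 3781, 3400 and 3434 CPM against 3651, 2958 and 7016 CPM. Cd55, which protects cells from complement, stood at 8.25, 7.21 and 4.70 CPM against 1.48, 1.61 and 2.24 CPM (adjusted p = 0.0670, 0.0332 without CD11b+ replicate 3).

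The alternative activation list did not move as 1 group. Its 20 genes had a median of -0.04 (-0.14 without CD11b+ replicate 3), with 1 higher and 6 lower without overlap. edgeR called 0 on the 6 libraries and 2 lower without CD11b+ replicate 3, and DESeq2 called 5 lower. The gene higher was Cd163, and the genes lower were Chil3, Retnla, Clec10a, Mgl2, Ccl17 and Ccl22. Mrc1, which encodes CD206, overlapped at 966, 618 and 609 CPM against 741, 780.0 and 353 CPM. The 16 tested classical activation genes had a median of -0.26 (-0.06 without CD11b+ replicate 3), 1 higher and 1 lower without overlap, 0 called by edgeR and 1 called lower by DESeq2. Ctsk, a collagen-degrading cathepsin, stood apart in the lysosome list, at 0.990, 0.848 and 0.481 CPM against 23.7, 32.8 and 3.82 CPM (adjusted p = 0.0708, 0.00104 without CD11b+ replicate 3), while the 24 genes of that list had a median of 0.01. Of 26 cholesterol and lipid genes 6 were higher and 4 lower without overlap, with a median of 0.05 (-0.06 without CD11b+ replicate 3). Abcg1, an exporter of cholesterol, stood at 158, 168 and 142 CPM against 107, 109.7 and 119 CPM, and Scd1, a fatty acid desaturase, at 35.3, 25.97 and 20.9 CPM against 14.04, 8.85 and 10.3 CPM (log2 fold change 1.30 ± 0.26, adjusted p = 0.103).

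Among transcription factors of myeloid cells 3 of 28 tested were higher without overlap, Nr1h3 and Zeb2 among them, and 3 lower, Cebpd, Irf4 and Bhlhe40. Bhlhe40, a repressor of interleukin 10, stood at 43.6, 42.6 and 31.6 CPM against 85.5, 97.1 and 71.9 CPM (adjusted p = 0.0687, 0.0207 without CD11b+ replicate 3). Spi1, which encodes PU.1, overlapped at 625, 589 and 631 CPM against 606, 627 and 1030 CPM. Of 24 TGF-beta and BMP genes 20 were higher, 9 without overlap, and 1 was lower without overlap, with a median of 0.41. edgeR called 0, and DESeq2 called Bmp2, which stood at 12.7, 9.65 and 8.07 CPM against 4.504, 5.44 and 3.29 CPM. Bmp6, which sets hepcidin in the liver, was called by neither, at 1.60, 2.12 and 1.28 CPM against 0.530, 0.710 and 0.593 CPM. Icos, a costimulatory receptor of T cells, stood at 5.94, 4.19 and 4.06 CPM against 1.43, 1.23 and 1.58 CPM and was called without CD11b+ replicate 3 (adjusted p = 0.0441), while Cd3e and Cd3d overlapped.

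Some programs changed in median when CD11b+ replicate 3 was left out or the length trend was removed. All 37 ribosomal protein genes were lower in F4/80+ cells, 19 without overlap, with a median of -0.69. With the length trend removed the median was -0.36. Without CD11b+ replicate 3 it was -0.11, with 19 genes still lower without overlap. Oxidative phosphorylation genes had a median of -0.44, 21 of 28 lower without overlap. With the length trend removed the median was -0.295. Without CD11b+ replicate 3 it was -0.15, with 21 genes still lower without overlap. The MHC class II median crossed 0 without CD11b+ replicate 3, from -0.34 to 0.40. Sums of that list were 19320, 36930 and 21690 against 21560, 13720 and 63180. H2-Oa, which edits peptide loading in B cells and dendritic cells, was lower in both fits, at 1.71, 2.17 and 1.76 CPM against 15, 7.86 and 27.5 CPM (adjusted p = 0.0581, 0.0220 without CD11b+ replicate 3). The MHC class I, cDC1, plasmacytoid dendritic cell, patrolling monocyte and eosinophil medians also changed sign without CD11b+ replicate 3. So did those of the cholesterol and the MC38 and epithelial lists. Collagen and matrix genes, of a median length of 7242 bases, had a median of 0.89, with 18 of 26 higher without overlap. The median was 0.59 without CD11b+ replicate 3 and 0.75 with the length trend removed. Col3a1 stood at 269.8, 327 and 425 CPM against 254, 174 and 149.5 CPM (adjusted p = 0.352). Fn1, a matrix gene that macrophages make, ran from 254 CPM in CD11b+ replicate 3 to 3251 CPM in CD11b+ replicate 2.

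**Figure D5:**
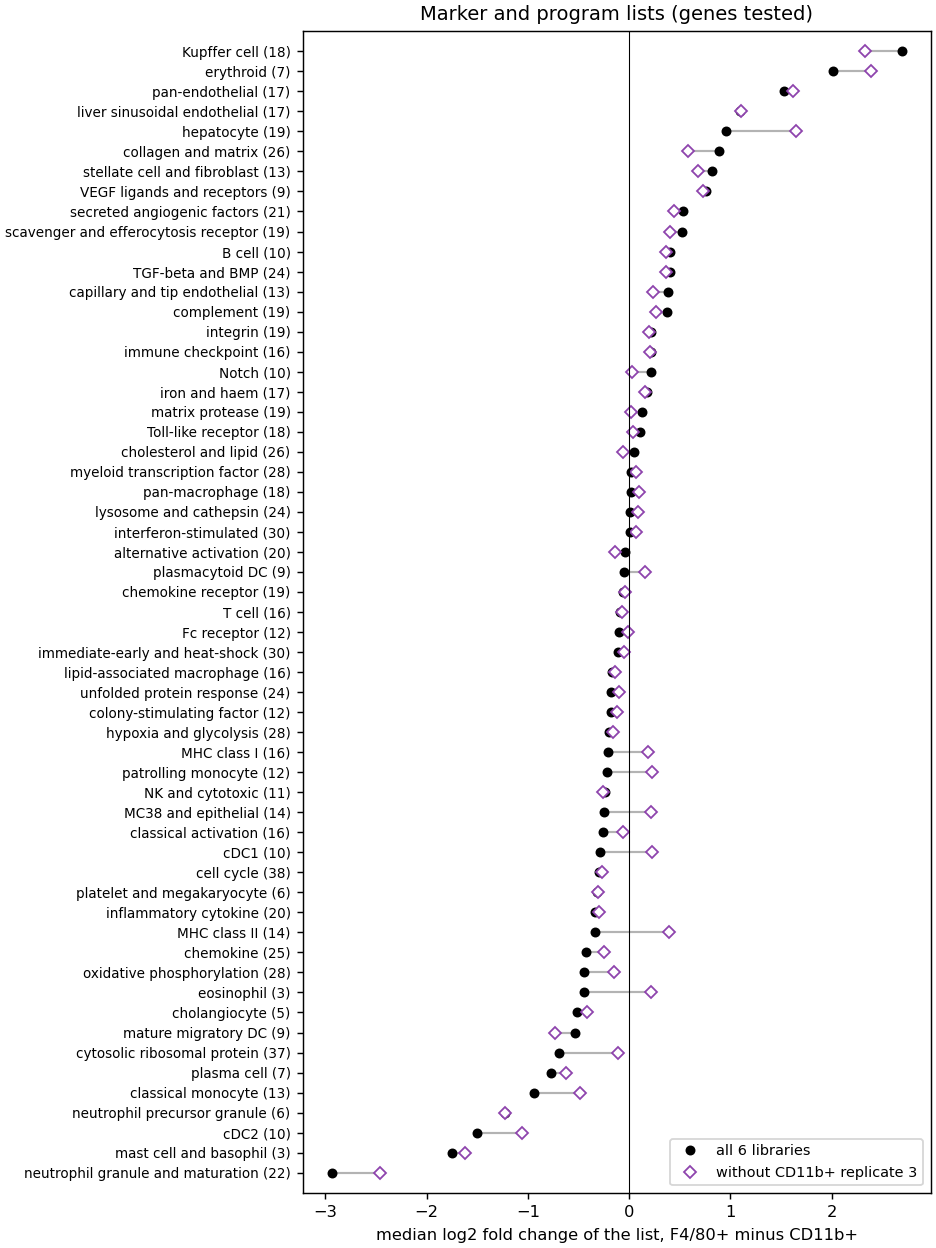
Median log2 fold change, F4/80+ minus CD11b+ (horizontal axis), of 57 gene lists (vertical axis, number of genes tested in parentheses) with all 6 libraries (filled circles) and without CD11b+ replicate 3 (open diamonds). With all 6 libraries the Kupffer cell (2.70) and neutrophil (-2.94) lists lie at the ends, without CD11b+ replicate 3 the erythroid list (2.39) lies above the Kupffer cell list (2.33), and MHC class II crosses 0 (-0.34 and 0.40).

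The 30 interferon-stimulated genes had a median of 0.01, with 2 higher without overlap. The medians were 0.11 for Toll-like receptors (0.04 without CD11b+ replicate 3), 0.22 for immune checkpoint genes and 0.17 for iron and haem genes, and edgeR called none of their members and DESeq2 1, of the iron and haem list. Immediate-early and heat-shock genes had a median of -0.11, but Fosb stood at 936, 250 and 334 CPM against 353, 367 and 168 CPM, an overlap between the populations, and was highest in the library that was also highest in Kupffer cell genes. Hypoxia and glycolysis genes had a median of -0.20, with 4 of 28 lower without overlap, Slc2a3, called, Eno1, Slc16a3 and Ankrd37. Cell cycle genes were lower in F4/80+ cells by small amounts, 33 of 38 with 15 without overlap, a median of -0.29 (-0.27 without CD11b+ replicate 3) and 0 called by edgeR or DESeq2. Mki67, the proliferation marker Ki-67, overlapped at 181, 155 and 181 CPM against 213, 172 and 82.02 CPM. Tyms, an enzyme of DNA synthesis, stood at 28.3, 23.5 and 28.5 CPM against 39.2, 37.1 and 38.4 CPM (log2 fold change -0.51 ± 0.14, adjusted p = 0.273).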

How the data were processed

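The authors deposited a table of raw counts per gene for the 6 sorted-cell libraries and another for 14 tissue libraries. The processing notes of the submitters name CASAVA, HISAT2 2.0.5 and featureCounts 1.5.0-p3 with the build GRCm38; the annotation, the strand setting and the roles of the tools are not given in the sources used here. Since strand use is not stated, overlapping and antisense genes cannot be told apart. Total RNA of cells held on MS columns by antigen beads had been made into NEBNext Ultra libraries. The labels of the sorted cells give no sex.

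Counts were filtered with filterByExpr, scaled by TMM and tested with the quasi-likelihood test of edgeR 4.0.16 (F4/80+ against CD11b+, 6 libraries, no covariate, Benjamini-Hochberg adjustment). Calls needed an adjusted p not above 0.05 with a log2 fold change of 1 or more in size. DESeq2 1.42.0 and the other alternatives are given in the closing section. The spread of replicates was larger than counting noise in each pair of libraries. Totals of 17785496 to 20548370 counts put 3 counts at 0.146 to 0.169 CPM, and intervals of ratios cover counting error only. Sums for Mt2 tissue are total-count CPM of the other table and were not tested against the sorted cells. The script was tested on simulated data with the same spread setting for every gene. No simulated library stood apart, so that case was not covered.

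The libraries and the 57 gene lists were chosen with earlier results of these data known. Named genes were every called gene, the bead antigens with Itgb2, the 10 genes of largest difference in each direction without overlap and with a mean log2 CPM of at least 1, the 5 most abundant coding genes of each population, the first 2 and the 4 lowest unadjusted p-values of each list, and list members called by DESeq2. Cebpd, Eno1, Fn1, Folr2, Id3, Ltf, Ly6g, Ngp, Nrp1, Retnla, Sirpa, Tnfrsf1b, Xlr4a and Zeb2 were named after their values were seen. Some genes that the rule names are not reported here. Promoter windows and motifs were read from RefSeq tables (GRCm38.p6).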

Additional observations from a re-analysis of the deposited data

How the results depend on the processing

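The number of called genes depended on the test and on the libraries. DESeq2 called 299 genes (127 higher and 172 lower in F4/80+ cells), the exact test of edgeR 327 (152 and 175), edgeR without a filter on low counts 242 (90 and 152) and a joint fit with the tissue libraries 206 (120 and 86), and all 11 calls were kept in each of these. Total-count scaling (median of all genes 0.086 on the log2 scale) called 6 (5 lower), and a minimum of 10 counts in every library called 5 (0 higher, 5 lower), of fewer genes tested. Of the 11 calls 6 were kept with total counts (Hdc and Il1r2 among those lost), 5 with the count minimum (G0s2 and Kcna2 lost), 4 without F4/80+ replicate 3 (G0s2 lost) and 7 without CD11b+ replicate 1 (Kcna2 lost). DESeq2 size factors, and no threshold on the fold change, each called 11 genes. Leaving out 1 library at a time gave 0 to 136 calls, 0 to 40 higher and 0 to 96 lower. The cause of the 0 without F4/80+ replicate 1, F4/80+ replicate 2 or CD11b+ replicate 2 was not tested. Chosen after seeing the data, removal of each library's length trend called 88 (26 and 62), another dispersion estimator of edgeR 29 (5 and 24), and, without CD11b+ replicate 3, DESeq2 314 (161 and 153) and the exact test 382 (195 and 187). The replicate block gave 78 calls (28 higher, 50 lower), but the labels share only numbers, and same-numbered libraries deviated with correlations of -0.067, -0.123 and 0.012, which does not show pairing.

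With 1 library left out the median log2 fold change ranged from -4.93 to -2.46 for neutrophil genes, from 2.05 to 3.12 for Kupffer cell genes, from -1.69 to -1.06 for cDC2 genes, from 1.19 to 1.75 for pan-endothelial genes and from -0.063 to 0.096 for pan-macrophage genes, for which it was 0.137 with the length trend removed. Of the 304 genes that the rule names 52 changed sign in at least 1 alternative, 28 of them without CD11b+ replicate 3 (Mrc1, Stab1 and Ly6c2 among these), and none of the 52 was a called gene. Itgb2 changed sign at 0.049 with total counts, 0.021 in the joint fit, 0.025 with the length trend removed, and 0.019 and 0.084 without F4/80+ replicate 1 and CD11b+ replicate 2 (range with 1 library left out -0.121 to 0.084). Genes with few counts, such as Rufy4, were limited by depth.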
